A study of Mus musculus with 6 samples.

Results

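The genes read out were the Notch receptor genes Notch1, Notch2 and Notch3 and the ligand genes Jag1, Jag2 and Dll1. The Notch target genes Hes1, Hey1, Hey2 and Heyl were read out as well. The cells were labelled as mouse melanoma cells, with and without floxed Kmt2d alleles. The 10 genes were found by their symbols among the 24391 genes of the count files, and none of their exons overlapped an exon of another gene in the files. KMT2D KO libraries (3) came from tumour cells of iBIP mice that carried KMT2DL/L, and KMT2D WT libraries (3) from those of iBIP;KMT2D+/+ mice. Both groups shared the iBIP alleles, on a mixed FVB and B6 background: Tyr-CreERT2, a Cre that tamoxifen switches on and the tyrosinase promoter drives in pigment cells, the transactivator Rosa26-rtta, a doxycycline-inducible mutant BRAF transgene, and floxed tumour suppressor alleles that include INK/ARF. Mice were given doxycycline, and 4-OHT, an active form of tamoxifen, was put on the ears, where the tumours arose. The isolated tumour cells were cultured, total RNA was sequenced, and a further label calls the KO samples Mutant. The labels name neither age nor number of mice, and give no account of whether replicate libraries come from separate cultures, tumours or animals. Every p-value here is thus relative to library-to-library spread, possibly technical alone. The Kmt2d genotype cannot be told apart from other differences between the tumours of origin.

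Notch receptors are single-pass membrane proteins that are activated by ligands of the Jagged and Delta-like families on neighbouring cells. Ligand pulling lets ADAM proteases and then gamma-secretase cut the receptor, and the freed intracellular domain enters the nucleus, where it joins the DNA-binding protein RBPJ and a Mastermind co-activator. Several Hes and Hey genes, which encode basic helix-loop-helix repressors, are its classic targets. In the melanocyte lineage, Notch signalling through Hes1 is known to maintain melanocyte stem cells and melanoblasts. NOTCH3 is best known from mural cells of vessels, and JAG1 from contacts between endothelial and mural cells.

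Promoter windows are shown for both members of the receptor and ligand groups that rose, Notch3 and Jag1, and for the most abundant receptor gene, Notch2, which fell. RefSeq promoter sequences (build GRCm38.p6) matched 7 of the 10 members, while Hes1, Hey1 and Heyl were not matched. Each window below holds the 250 bases before the annotated start, 5′ to 3′ on the strand of the gene, with capitals for the GC box GGGCGG or its reverse complement.
Notch3 (chr17:32166891-32167140, minus strand): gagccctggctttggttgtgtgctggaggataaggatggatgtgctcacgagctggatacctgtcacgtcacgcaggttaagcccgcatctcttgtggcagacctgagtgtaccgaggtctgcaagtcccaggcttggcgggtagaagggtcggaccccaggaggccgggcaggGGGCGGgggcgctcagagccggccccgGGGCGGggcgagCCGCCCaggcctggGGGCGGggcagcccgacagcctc
Jag1 (chr2:137116521-137116770, minus strand): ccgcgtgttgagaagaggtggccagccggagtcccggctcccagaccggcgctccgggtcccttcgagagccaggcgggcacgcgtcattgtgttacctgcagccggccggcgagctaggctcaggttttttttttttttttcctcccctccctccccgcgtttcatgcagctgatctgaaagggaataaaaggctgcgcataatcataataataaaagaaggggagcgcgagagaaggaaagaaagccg
Notch2 (chr3:98013288-98013537, plus strand): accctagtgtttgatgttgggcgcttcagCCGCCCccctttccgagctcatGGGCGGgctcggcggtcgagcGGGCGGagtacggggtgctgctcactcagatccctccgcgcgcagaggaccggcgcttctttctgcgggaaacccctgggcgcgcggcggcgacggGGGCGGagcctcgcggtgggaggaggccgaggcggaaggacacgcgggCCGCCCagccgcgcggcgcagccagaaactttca
GC boxes numbered 4 in the Notch3 window, 0 in the Jag1 window and 5 in the Notch2 window, and 32.7% of all 32851 RefSeq promoter windows of this length held at least 1. The GC content was 68.8% for Notch3, 57.2% for Jag1 and 72% for Notch2, against a median of 52.4% over all windows. The RBPJ core TGGGAA, searched on both strands, was in none of the 3 windows, nor in those of Notch1, Jag2 or Dll1, and occurred once in that of Hey2. It was present in 21.6% of all windows. The E-box CACGTG, a palindrome, was in no window of a member and in 6.02% of all windows. Notch3 and Jag1 thus shared none of the 3 motifs in these windows. A match or its absence is a description of the letters only.

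Total counts per library were 55594979 to 79718782 in KMT2D KO and 43168605 to 59360068 in KMT2D WT. Counts were given as CPM, counts per 1000000 after TMM scaling of the library, or as RPKM, the same value per 1000 exonic bases, where levels of different genes are compared. KMT2D WT replicate 3 stood somewhat apart, with Pearson coefficients of log2 CPM of 0.973 and 0.976 to the other WT libraries, which correlated at 0.986 with each other. The KO libraries correlated at 0.987 to 0.992. Kmt2d itself had 73.0, 69.3 and 79.8 CPM in KMT2D KO replicates 1, 2 and 3, against 79.7, 87.6 and 101 CPM in KMT2D WT. Its log2 fold change, KO minus WT throughout, was -0.27 (SE 0.08, edgeR adjusted p = 0.0075), -0.17 without WT replicate 3, and not called without KO replicate 2 (adjusted p = 0.058). A total over all exons does not check a deletion of some of them. The melanocyte enzyme genes Tyr, Tyrp1 and Dct averaged at most 0.0765 CPM in either group and Mitf 53.2 CPM in KMT2D KO and 15.4 CPM in KMT2D WT. Of the 8 melanocyte markers, 6 averaged under 1 CPM in both groups, with Sox10 at 0.300 CPM in KMT2D KO and 0.444 CPM in KMT2D WT. The list summed to 50.3 to 59.0 CPM in KMT2D KO and 15.9 to 17.3 CPM in KMT2D WT. Mitf was the only abundant one, and the other 7 markers summed to 1.71 to 1.94 CPM in KMT2D KO and 1.12 to 1.71 CPM in KMT2D WT. Mitf alone does not establish the labelled cell type, and most of its defining genes were at or near 0. The 8 fibroblast markers summed to 21240 to 22240 CPM in KMT2D KO and 5530 to 5730 CPM in KMT2D WT. The 7 cerebellar markers summed to 0.261 to 0.583 CPM in KMT2D KO and 0.274 to 0.380 CPM in KMT2D WT, which bears on the extraction protocol's mention of that tissue.

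Of the 10 Notch genes, 3 rose in KMT2D KO, 1 from each role: the receptor gene Notch3, the ligand gene Jag1 and the target gene Hes1. The receptor genes Notch1 and Notch2 fell, Jag2, Dll1 and Hey1 were not called, and Hey2 and Heyl had too few counts to be tested. The test was edgeR's quasi-likelihood test, with a call at a Benjamini-Hochberg adjusted p under 0.05. Called genes made up 71.0% of all 14579 tested genes, 35.4% higher and 35.5% lower in KMT2D KO, so the share of members called lay near the background. All 3 members that rose had a log2 fold change above 1, a size called in 13.9% of tested genes. All 8 tested members passed the low-count filter in every library of both groups. Their median log2 fold change was 0.39, against 0.0041 over all tested genes. KO and WT libraries were fully separate in 5 of the 8, against 74.3% of all tested genes. In these bulk samples, a different number of expressing cells and a different amount of RNA per cell cannot be told apart.

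**Figure D1:**
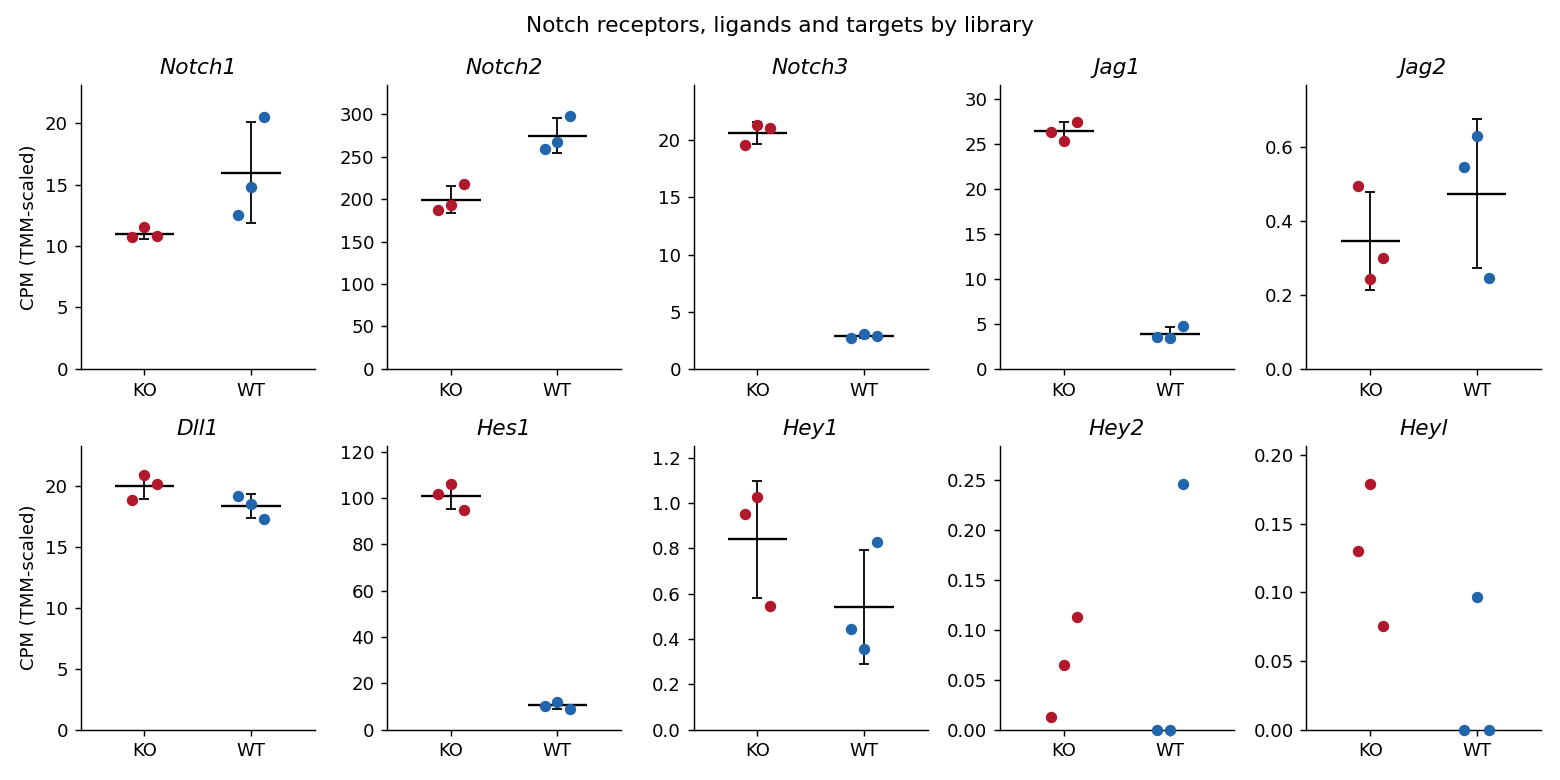
CPM of each member (vertical axes, linear and starting at 0) in the 3 KMT2D KO libraries (red, left) and the 3 KMT2D WT libraries (blue, right), with mean and SD as black lines for the 8 tested genes. Notch3, Jag1 and Hes1 stand far higher in KO, Notch1 and Notch2 lower, and Hey2 and Heyl stay under 0.25 CPM in all libraries.

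Among the receptors, Notch3 had 19.6, 21.3 and 21.1 CPM in KMT2D KO replicates 1, 2 and 3, against 2.67, 3.04 and 2.84 CPM in KMT2D WT. The lowest KO library thus lay well above the highest WT library. Means were 20.7 ± 0.966 CPM in KMT2D KO and 2.85 ± 0.184 CPM in KMT2D WT (SD, n = 3 each), a 7.24-fold rise (log2 fold change 2.86, SE 0.11, edgeR adjusted p = 5.5e-12). This log2 fold change exceeded that of 96.4% of tested genes. The gene (mm9 chromosome 17, 32257838 to 32303797, minus strand) lies on a chromosome whose tested genes had a median log2 fold change of 0.05.

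Notch2, the most abundant receptor gene (mm9 chromosome 3, 97817461 to 97954290, plus strand), went the other way. It had 188, 193 and 218 CPM in KMT2D KO, against 259, 267 and 299 CPM in KMT2D WT. All KO libraries lay below all WT libraries, with means of 199.5 ± 15.9 CPM in KMT2D KO and 275 ± 20.8 CPM in KMT2D WT (SD, n = 3 each). The log2 fold change was -0.46 (SE 0.07, edgeR adjusted p = 2.1e-05), and -0.40 without WT replicate 3.

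Notch1 (mm9 chromosome 2, 26313422 to 26359342, minus strand), a receptor with broad roles in tissue patterning, had 10.7, 11.5 and 10.8 CPM in KMT2D KO, against 12.5, 14.8 and 20.5 CPM in KMT2D WT. The KO libraries were close to each other and the WT libraries were not, since WT replicate 3 was the highest by a wide margin. Means were 11.0 ± 0.452 CPM in KMT2D KO and 16.0 ± 4.12 CPM in KMT2D WT (SD, n = 3 each), with -0.53 as the log2 fold change (SE 0.14, edgeR adjusted p = 0.0042). Without WT replicate 3 the fall was smaller, at -0.31 (edgeR adjusted p = 0.011). All alternatives that tested against no change kept the call (adjusted p = 1.8e-05 to 0.026, both from edgeR). Against a log2 fold change of 1 (glmTreat) Notch1 was not called.

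Among the ligands, Jag1 (mm9 chromosome 2, 136907187 to 136942256, minus strand) had 26.3, 25.3 and 27.5 CPM in KMT2D KO, against 3.56, 3.42 and 4.74 CPM in KMT2D WT. The groups were far apart, with WT replicate 3 the highest of its group. Means were 26.4 ± 1.06 CPM in KMT2D KO and 3.91 ± 0.724 CPM in KMT2D WT (SD, n = 3 each), a 6.80-fold rise (log2 fold change 2.77, SE 0.12, edgeR adjusted p = 2.6e-11). Jag1 shares chromosome 2 with Notch1, which fell, and the tested genes of that chromosome had a median of 0.27.

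Dll1, which encodes a Delta-like ligand (mm9 chromosome 17, 15504318 to 15512787, minus strand), had 18.9, 20.9 and 20.2 CPM in KMT2D KO, against 19.2, 18.6 and 17.3 CPM in KMT2D WT. The groups overlapped, and the log2 fold change, 0.12 (SE 0.08, edgeR adjusted p = 0.21), was not called. The size of the difference itself depended on scaling, since library size alone gave 0.0098.

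Jag2, the second Jagged ligand gene (mm9 chromosome 12, 114146801 to 114167706, minus strand), was scarce. It had 38, 15 and 16 counts in KMT2D KO and 32, 39 and 11 counts in KMT2D WT, or 0.495, 0.244 and 0.301 CPM in KMT2D KO and 0.547, 0.630 and 0.246 CPM in KMT2D WT. The ranges nearly coincided, and the log2 fold change of -0.45 had an SE of 0.51 (edgeR adjusted p = 0.45). At this depth a difference of that size was not detectable.

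Among the targets, Hes1, a repressor gene that responds quickly to Notch activation (mm9 chromosome 16, 30065443 to 30067882, plus strand), showed the largest change of the members. It had 102, 106 and 94.7 CPM in KMT2D KO, against 10.4, 12.1 and 9.03 CPM in KMT2D WT. Every KO library was several times above every WT library. Means were 101 ± 5.69 CPM in KMT2D KO and 10.5 ± 1.51 CPM in KMT2D WT (SD, n = 3 each), a 9.56-fold rise (log2 fold change 3.26, SE 0.09, edgeR adjusted p = 1.6e-13). The tested genes of chromosome 16 had a median of -0.44. Relative to that median the log2 fold change of Hes1 was 3.70.

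The Hey genes, which encode relatives of Hes1 with prominent roles in heart and vessel development, were scarce, and Hey2 and Heyl were near the limit of detection. Hey1 (mm9 chromosome 3, 8663359 to 8667038, minus strand) had 0.951, 1.03 and 0.545 CPM in KMT2D KO, against 0.445, 0.355 and 0.827 CPM in KMT2D WT. The groups overlapped through KO replicate 3 and WT replicate 3, and the log2 fold change, 0.66 (SE 0.44, edgeR adjusted p = 0.20), did not reach a call. Leaving out WT replicate 3 gave a call, at 1.08 (edgeR adjusted p = 0.033). No other alternative did, with an edgeR adjusted p of up to 0.46 among those that tested against no change.

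Hey2 (mm9 chromosome 10, 30552165 to 30562589, minus strand) had 1, 4 and 6 counts in KMT2D KO, and 0, 0 and 11 counts in KMT2D WT. All WT counts thus came from replicate 3. Heyl (mm9 chromosome 4, 122910799 to 122927113, plus strand) had 10, 11 and 4 counts in KMT2D KO, and 0, 6 and 0 counts in KMT2D WT. A count of 0 in a single WT library allows a level of up to 3 counts, which is 0.0484 to 0.0671 CPM over the 3 WT libraries. Both genes failed the low-count filter, and with the filter removed neither was called (edgeR adjusted p = 0.89 for Hey2 and 0.30 for Heyl).

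**Figure D2:**
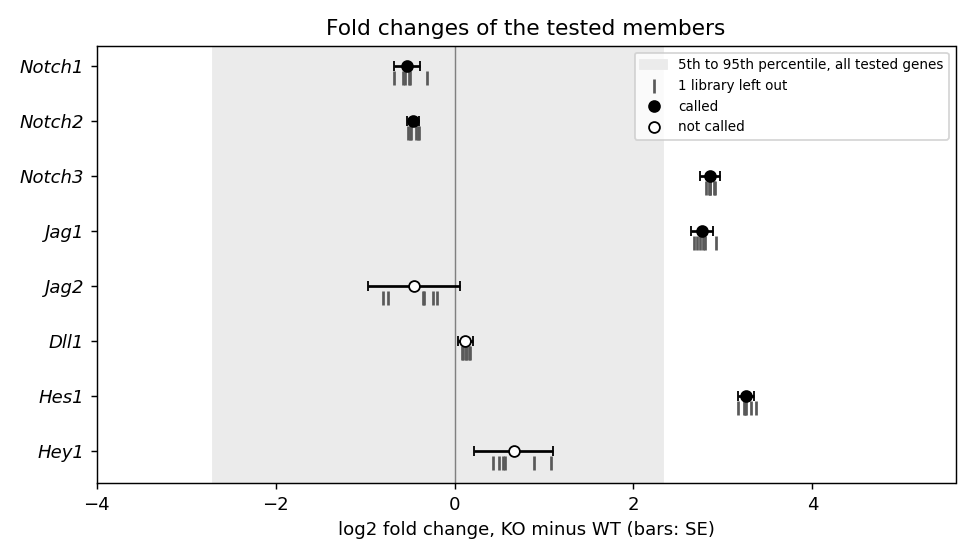
Log2 fold change, KO minus WT (horizontal axis), of the 8 tested members, with SE as bars, filled points for called genes and ticks for the values with 1 library left out. The grey band spans the 5th to 95th percentile of all tested genes, -2.70 to 2.33, and only Notch3, Jag1 and Hes1 among these members lie outside it.

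Set side by side per exon length, the members made up different mixtures in the groups. Summed RPKM of the 3 receptor genes was 22.8 ± 1.57 in KMT2D KO and 28.2 ± 2.41 in KMT2D WT (SD, n = 3 each), with no overlap between libraries. Notch2 gave most of the receptor total in both, 83.4% ± 1.01 in KMT2D KO and 92.8% ± 0.932 in KMT2D WT. Notch3 gave 11.5% ± 0.599 in KMT2D KO and 1.28% ± 0.121 in KMT2D WT, and so ranked above Notch1 in KMT2D KO (5.12% ± 0.420) and below it in KMT2D WT (5.90% ± 1.00). The total of these 3 receptor genes was thus smaller in KMT2D KO although the share of Notch3 was larger. Notch4, which is not a member, was left out of it. Its mean was 0.0993 RPKM in KMT2D KO and 0.544 RPKM in KMT2D WT, where it lay above Notch3.

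Summed RPKM of the 3 ligand genes was 10.7 ± 0.271 in KMT2D KO and 6.19 ± 0.210 in KMT2D WT (SD, n = 3 each). Jag1 supplied 46.0%, 42.8% and 45.6% of it in KMT2D KO replicates 1, 2 and 3, against 10.1%, 10.1% and 14.5% in KMT2D WT. Dll1 supplied 54.4% ± 1.99 in KMT2D KO and 86.6% ± 1.77 in KMT2D WT (SD, n = 3 each). The sum of these 3 genes was therefore mostly Dll1 in KMT2D WT and shared by Dll1 and Jag1 in KMT2D KO. Jag2 gave 0.803% ± 0.325 in KMT2D KO and 1.88% ± 0.773 in KMT2D WT. Other ligand genes were not part of this sum. Among the 4 target genes, Hes1 gave 99.4% ± 0.130 of the summed RPKM in KMT2D KO and 96.0% ± 2.68 in KMT2D WT.

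**Figure D3:**
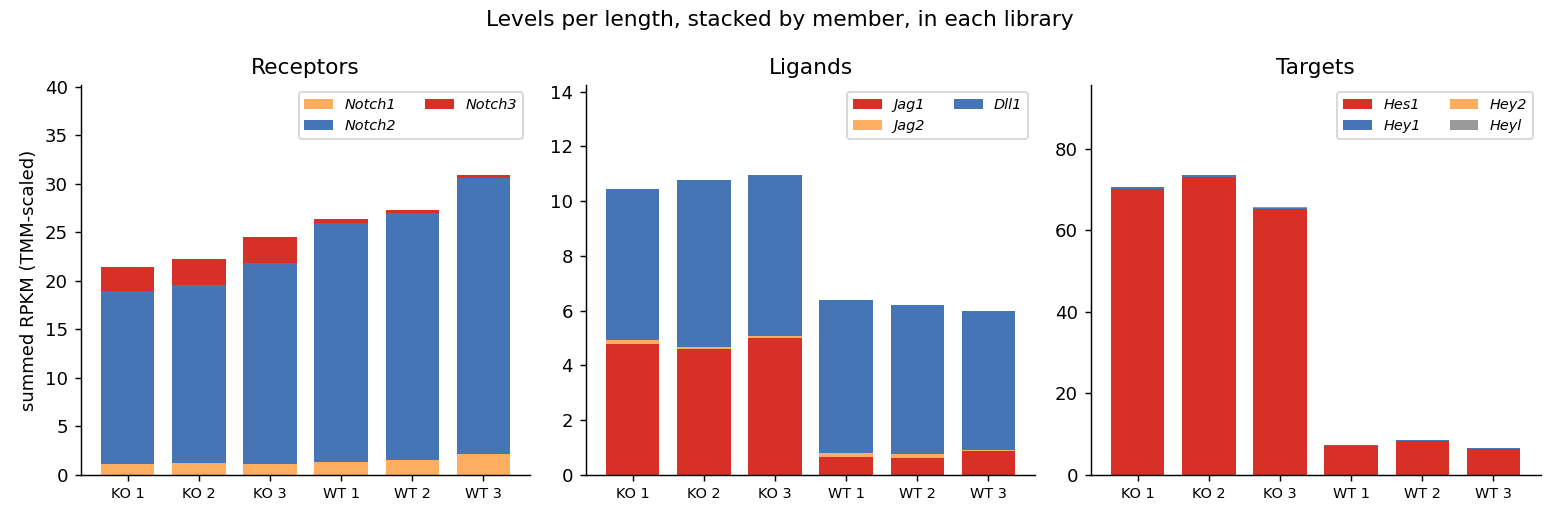
Stacked RPKM (vertical axes) of the receptor, ligand and target members in KMT2D KO replicates 1 to 3 (left) and KMT2D WT replicates 1 to 3 (right). The receptor bars are lower in KO with a visible Notch3 part, the ligand bars are higher through Jag1, and the target bars consist almost wholly of Hes1.

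The order of mean RPKM differed between the groups. In KMT2D KO it ran from Hes1 (69.5) over Notch2 (19.0), Dll1 (5.83), Jag1 (4.80), Notch3 (2.60), Notch1 (1.16), Hey1 (0.381) and Jag2 (0.0855) to Heyl (0.0283) and Hey2 (0.0251). Only the last 2 neighbours overlapped between libraries there. In KMT2D WT, Notch2 (26.2) led, followed by Hes1 (7.24), Dll1 (5.36), Notch1 (1.68), Jag1 (0.711), Notch3 (0.359), Hey1 (0.246), Jag2 (0.117), Hey2 (0.0324) and Heyl (0.00713). Neighbours that overlapped in KMT2D WT were Notch3 with Hey1, Jag2 with Hey2, and Hey2 with Heyl.

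The other genes of the pathway were described from 5 lists of 67 genes, of which 59 were tested, 28 rose and 17 fell in KMT2D KO, with Dtx1 counted in 2 of the lists. The median log2 fold change was 0.13, and these shares are to be read against the 35.4% higher and 35.5% lower among all tested genes. Of the 18 called genes that changed by a log2 fold change above 1 in size, 7 were among the other receptors and ligands, 1 among the genes for maturation and cleavage, 4 in turnover, 3 in the nuclear complex and 4 among other targets, with Dtx1 again in 2 lists. Changes of that size were called in 26.8% of all tested genes, and the 18 of 59 lay near that background. For the pathway genes named next, a value alone in brackets is the log2 fold change.

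Of 10 other receptors and ligands, 8 were tested, 3 rose and 5 fell, with a median of -1.34. Dlk1, an atypical ligand without the DSL domain, averaged 4.46 ± 0.591 CPM in KMT2D KO and 0.151 ± 0.0327 CPM in KMT2D WT (SD, n = 3 each; log2 fold change 4.86, edgeR adjusted p = 6.9e-10). Mfap2 and Mfap5 encode microfibril proteins that can bind Notch and Jagged. Mfap2 rose to 2.92 CPM in KMT2D KO, against 0.115 CPM in KMT2D WT (4.64), while Mfap5 fell to 7.95 CPM in KMT2D KO, against 83.1 CPM in KMT2D WT (-3.39). Notch4, the receptor of endothelial cells, had 0.704, 0.342 and 0.921 CPM in KMT2D KO, against 2.92, 4.17 and 3.69 CPM in KMT2D WT (-2.46, edgeR adjusted p = 4.1e-06). Dll3 and Dll4 had too few counts to be tested, with means of at most 0.145 CPM.

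Of 15 genes for receptor maturation and cleavage, 14 were tested, 3 rose, 6 fell and 5 had no call (median log2 fold change 0.02). Both proteases that can make the first cut changed, in opposite directions. Adam17 rose to 93.6 ± 2.40 CPM in KMT2D KO, against 57.1 ± 1.44 CPM in KMT2D WT (0.71), and Adam10, the main protease for ligand-activated receptors, fell to 129 ± 1.36 CPM in KMT2D KO, against 226 ± 5.85 CPM in KMT2D WT (-0.81; SD, n = 3 each). Adam17 shares exonic sequence with Iah1, so its counts are uncertain. The gamma-secretase gene Psen2 rose to 32.9 CPM in KMT2D KO, against 22.2 CPM in KMT2D WT (0.57). Lfng, a Fringe glycosyltransferase that adds sugar to Notch and changes which ligands it answers, had 0.678, 0.602 and 0.940 CPM in KMT2D KO, against 5.56, 6.60 and 4.61 CPM in KMT2D WT. Its log2 fold change was -2.93 (SE 0.23, edgeR adjusted p = 2.0e-08), the lowest of this list. The other changes of the list stayed within a log2 fold change of 1.

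Of 13 genes for ligand endocytosis and receptor turnover, all were tested, 8 rose, 2 fell and 3 had no call (median log2 fold change 0.48). Neurl1b, a ubiquitin ligase for ligands, rose to 3.43 CPM in KMT2D KO, against 0.620 CPM in KMT2D WT (2.43). Dtx3l, a Deltex-family ubiquitin ligase that shares exonic sequence with Parp9, rose to 139 CPM in KMT2D KO, against 36.9 CPM in KMT2D WT (1.92). Mib1, the ubiquitin ligase that drives ligand endocytosis, fell to 54.5 CPM in KMT2D KO, against 94.6 CPM in KMT2D WT (-0.80). Fbxw7, which targets the Notch intracellular domain for degradation and shares exonic sequence with Dear1, fell to 24.5 CPM in KMT2D KO, against 30.4 CPM in KMT2D WT (-0.31).

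Of 18 genes of the nuclear complex and its co-repressors, all were tested, 11 rose, 2 fell and 5 had no call (median log2 fold change 0.43). Tle2, a Groucho family co-repressor gene, rose to 39.8 CPM in KMT2D KO, against 12.2 CPM in KMT2D WT (1.71), and Cir1, an RBPJ co-repressor, to 15.9 CPM in KMT2D KO, against 7.81 CPM in KMT2D WT (1.02). Ctbp1, another co-repressor gene, fell to 67.5 CPM in KMT2D KO, against 117 CPM in KMT2D WT (-0.79), and the Mastermind gene Maml3 to 36.6 CPM in KMT2D KO, against 43.9 CPM in KMT2D WT (-0.26). The other Mastermind genes, named after their values were seen, rose by more, Maml1 by 0.79 and Maml2 by 0.97 on the log2 scale. Likewise named afterwards, Rbpj rose to 280 CPM in KMT2D KO, against 210 CPM in KMT2D WT (0.42, edgeR adjusted p = 2.8e-06).

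Of 12 genes listed as other targets, 7 were tested, 4 rose, 2 fell and 1 had no call (median log2 fold change 0.43). The list includes Hes-family genes such as Hes6, and whether its genes respond to Notch in these cells was not tested. Acta2, the smooth muscle actin gene that Notch signalling is known to induce in mural cells, rose to 2107 ± 38.3 CPM in KMT2D KO, against 372 ± 16.2 CPM in KMT2D WT (2.50; SD, n = 3 each). Hes6, which encodes a Hes-family protein that counteracts Hes1, rose to 23.1 ± 1.41 CPM in KMT2D KO, against 10.03 ± 0.764 CPM in KMT2D WT (1.20). Ccnd1, the cyclin D1 gene, fell to 678 CPM in KMT2D KO, against 1412 CPM in KMT2D WT (-1.06). Cdkn1a, a cell cycle inhibitor gene, averaged 167 CPM in KMT2D KO and 187 CPM in KMT2D WT, with overlapping libraries. It was called at -0.16 (edgeR adjusted p = 0.026), but the call was lost without any one of the 3 KO libraries, WT replicate 2 or WT replicate 3 (adjusted p = 0.057 to 0.12). The classic targets Nrarp and Hes5, chosen after their values were seen, were not tested, with at most 0.0859 CPM on average for Nrarp and 2 counts in all 6 libraries for Hes5.

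**Figure D4:**
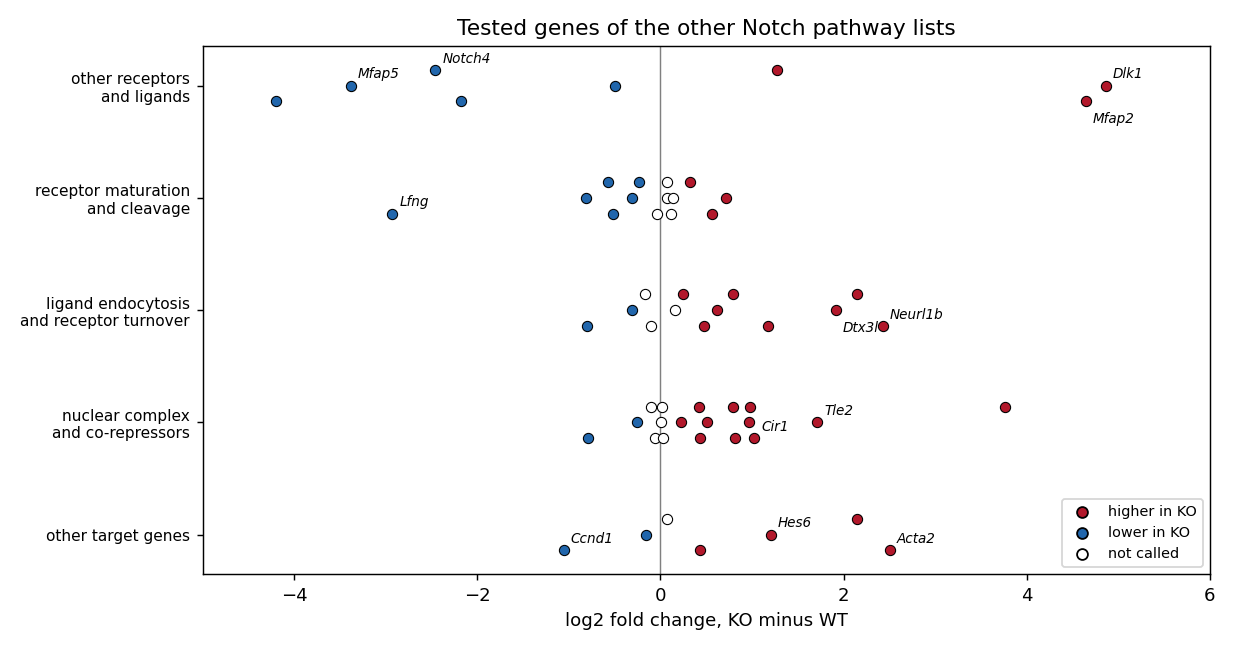
Log2 fold change, KO minus WT (horizontal axis), of each tested gene of the 5 other pathway lists (rows), coloured by whether it was called higher, lower or not called. The list of other receptors and ligands is spread widest, from -4.20 (Dner) to 4.86 (Dlk1), and the maturation list lies within 1 of zero except for Lfng at -2.93.

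Similarity of pattern was measured as the Euclidean distance between log2 CPM values, each centred over the 6 libraries. For Hes1, the most abundant of the 4 target members, the nearest tested genes were Rtp4 (distance 0.187), Slc16a3 (0.251) and Mt2 (0.256), which had log2 fold changes of 3.24, 3.40 and 3.08. For Notch2, the most abundant of the 3 receptor members, they were Hdac4 (0.0348), Thada (0.0558) and Afap1 (0.0579), with -0.45, -0.47 and -0.45. For Dll1, the most abundant of the 3 ligand members, they were Cct4 (0.0716), Zfp410 (0.0829) and Rps6kc1 (0.0835), none of them called. Within a distance of 0.5 there were 43 other tested genes for Hes1, 2927 for Notch2 and 4269 for Dll1, the fewest for Hes1. The distance takes in the difference between the groups, so near genes have similar log2 fold changes by construction. For the same reason few genes lie near a member with a large change.

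Markers of cells in which these genes are prominent were set beside the results. Counts of markers that rose or fell are to be read against the 35.4% higher and 35.5% lower among all tested genes. All 6 endothelial markers averaged under 1 CPM in both groups, and their summed level was 0.432 to 0.626 CPM in KMT2D KO and 1.12 to 1.39 CPM in KMT2D WT. Of 7 mural cell markers, 6 were tested and 3 rose, with a summed level of 71.9 to 80.9 CPM in KMT2D KO and 48.5 to 49.6 CPM in KMT2D WT. Most of that sum was Cspg4, a proteoglycan gene that melanoma cells also express (64.4 CPM in KMT2D KO and 41.3 CPM in KMT2D WT). Myh11 rose to 3.08 CPM in KMT2D KO, against 1.29 CPM in KMT2D WT (1.25), and Cnn1 to 6.53 CPM in KMT2D KO, against 5.04 CPM in KMT2D WT (0.37). The other 4, Rgs5, Kcnj8, Abcc9 and Des, each averaged under 1 CPM in both groups. Without Cspg4, the mural sum was 10.15 to 11.4 CPM in KMT2D KO and 7.11 to 8.32 CPM in KMT2D WT. Of 8 fibroblast markers, all were tested, 6 rose and 2 fell, with a summed level of 21240 to 22240 CPM in KMT2D KO and 5530 to 5730 CPM in KMT2D WT. Of 5 Schwann cell markers, 3 rose and 1 fell, with 54.2 to 58.5 CPM in KMT2D KO and 13.8 to 15.8 CPM in KMT2D WT. Most of that sum in KMT2D KO was Egr2 (53.0 CPM in KMT2D KO and 8.25 CPM in KMT2D WT), and the other 4 summed lower in KMT2D KO, at 3.58 to 4.06 CPM, against 6.01 to 7.06 CPM in KMT2D WT. Among them S100b fell to 0.181 CPM in KMT2D KO, against 4.47 CPM in KMT2D WT. The 6 keratinocyte markers summed to 16.2 to 17.6 CPM in KMT2D KO and 11.2 to 15.0 CPM in KMT2D WT, and the 6 immune markers to 1.02 to 1.45 CPM in KMT2D KO and 3.26 to 4.77 CPM in KMT2D WT. Without Trp63 (10.2 CPM in KMT2D KO and 0.784 CPM in KMT2D WT), the keratinocyte sum was lower in KMT2D KO, at 5.71 to 7.32 CPM, against 10.8 to 13.95 CPM in KMT2D WT. Summed levels of the mural and fibroblast lists were thus higher in KMT2D KO with or without their most abundant marker. Without Col1a2, however, the fibroblast sum was still mostly Col3a1 and Col1a1, and does not stand for the whole list. The keratinocyte and Schwann cell sums were higher only with Trp63 and Egr2, and lower without them. The melanocyte sum was higher through Mitf, and the ranges of its other markers met at 1.71 CPM. Those of the endothelial and immune lists were lower in KMT2D KO. The part of such cells in these results was not tested.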

How the data were processed

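RNA sequencing libraries of 3 KMT2D KO and 3 KMT2D WT samples were grouped by their titles. The deposited counts are whole fragments per gene, made by featureCounts 1.5.2 over exons of an mm9 annotation, per the file headers. No strand, multi-mapping or overlap option was set, so fragments of both strands were counted and, by default, multi-mapping fragments and those that overlap several genes were left out. Close paralogues such as Aph1b and Aph1c are therefore uncertain. STAR and HTSeq are named in the submitters' processing notes without roles. Exon lengths (in bases) are those in the deposited files.

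Of 24391 genes, 14579 passed edgeR's default low-count filter, and 3978 had no count. Genes that passed were tested in 1 edgeR 4.0.16 (R 4.3.3) quasi-likelihood F fit with TMM scaling and a group-only model, with Benjamini-Hochberg adjustment. SE was taken as the absolute log2 fold change over the root of its F value. CPM and RPKM use TMM-scaled totals of tested genes. The fit was tested on simulated data. Alternatives were RLE, library size only, DESeq2 1.42.0, limma voom 3.58.1, 2 other low-count filters, robust empirical Bayes, a replicate block, glmTreat, subtraction of the chromosome median and leaving out each library.

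Precision is limited by counting for scarce genes, and the floors given for counts of 0 include counting error alone, as the fragments carry no molecular identifiers. Named genes were all members, Kmt2d, up to 2 rising and 2 falling called genes of each pathway list with at least 1 CPM, and the 3 genes nearest in pattern to the leading receptor, ligand and target. The members and lists were chosen with earlier results of these data known. Promoters are from RefSeq on GRCm38.p6, and all other coordinates are mm9, counted from 1.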

Additional observations from a re-analysis of the deposited data

How the results depend on the processing

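Of 126 values of the 8 tested members under the alternatives, 120 kept their direction and side of the threshold, or moved by less than the spread between libraries, and 0 reversed. Against a log2 fold change of 1 (glmTreat), 3 members were called higher and 0 lower, since Notch1 and Notch2 were no longer called, and the counts fell to 11 higher and 5 lower among the other pathway genes and to 1479 higher and 1344 lower among all genes. Subtracting the chromosome median moved Notch1 to -0.81, Jag1 to 2.49 and Hes1 to 3.70. Scaling by library size alone shifted the median of all genes by -0.11 and called 4415 genes higher and 5987 lower (42.4% of calls higher, against 49.9%), with 25 higher and 20 lower among the other pathway genes. Leaving out 1 library at a time gave 3 to 4 members called higher and 2 to 2 lower, the additional call being Hey1 without WT replicate 3, with 27 to 29 higher and 16 to 17 lower among other pathway genes. Over all tested genes no pairing by replicate number was seen, as deviations of same-numbered libraries correlated at 0.0163, 0.00011 and 0.0121. Not every library correlated best with its own number. Such values do not exclude a pairing. A fit with a replicate block called 3 members higher and 2 lower, and 28 and 17 of the other pathway genes. Jag2, Hey1, Hey2 and Heyl are limited by depth, with 6 to 165 counts over a group.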
